A study of Sus scrofa with 11 samples.

Results

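Cytokines, chemokines and their receptors were followed in the *M. semimembranosus*, a muscle of the hind leg, of 11 purebred Duroc gilts (young female pigs). A gene was included where a probe set of the Affymetrix Porcine Genome array carried its symbol alone and that symbol began with IL and a digit, CCL, CXCL, CCR or CXCR and a digit, IFN, TNFSF or TNFRSF. These symbols chose 84 probe sets of 72 genes, out of 6765 genes with a single symbol on the array. Where a gene had several probe sets, which 11 genes did, the one with the highest mean level over the 11 arrays was read. The high protein diet (HP, 217 g/kg crude protein and 13.0 g/kg lysine) was fed to 6 gilts, and the low protein diet (LP, 128 g/kg crude protein and 7 g/kg lysine) to 5. The diets held the same energy per kg, were eaten ad libitum from about 10 weeks of age and were fed for 63 days. Each pig has its own array, so the pig is the replicate, and nothing was pooled. The pigs were blocked on initial body weight and housed in groups, and the labels and methods do not assign single pigs to a block or pen, so these cannot be told apart from diet or from the spread between pigs.

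Cytokines are small secreted proteins through which immune and tissue cells signal to each other, and chemokines are the cytokines that attract moving cells. Interleukins and interferons mostly act through paired receptor chains that switch on JAK kinases and STAT transcription factors, while chemokines act on receptors coupled to G proteins and ligands of the TNF family on receptors that reach NF-kB or caspases. In skeletal muscle these transcripts come from resident macrophages, vessel walls, connective tissue, fat cells and lymphocytes as well as from the fibres. Because whole muscle was measured, fewer cells of a type and less RNA per cell cannot be told apart.

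Most of the receptors and most of the chemokines were measurable in muscle, while most interleukins were not. A gene was counted as detected where its level lay above the brightest of 23 negative controls on at least 6 of the 11 arrays, a height that ranged from 1.96 to 3.58 on the log2 scale between arrays. Of the 72 genes 44 were detected (61.1%), compared with 6024 of the 6765 genes with a single symbol (89.0%). On all 11 arrays 38 of the 72 lay above the controls, on 1 to 5 arrays 16 did, and on no array 12. The number of these genes above the controls varied between 43 and 53 from pig to pig. Levels of different genes are not compared here, since probe sets differ in how well they hybridise.

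By role, 14 of 19 chemokines, 3 of 7 chemokine receptors, 6 of 18 interleukins, 9 of 13 interleukin receptors and modulators, 5 of 7 interferons and interferon receptors, 2 of 3 TNF ligands and 5 of 5 TNF receptors were detected. Ligands were detected in 24 of 44 cases and receptors or modulators in 20 of 28. The 12 genes above the controls on no array were the chemokines CCL27 and CCL28, the chemokine receptors CCR2, CCR7 and CCR9, the interleukins IL12A, IL17A, IL2, IL21 and IL4, the receptor IL18R1 and the interferon IFNB1. Several of these are products of activated lymphocytes.

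**Figure D1:**
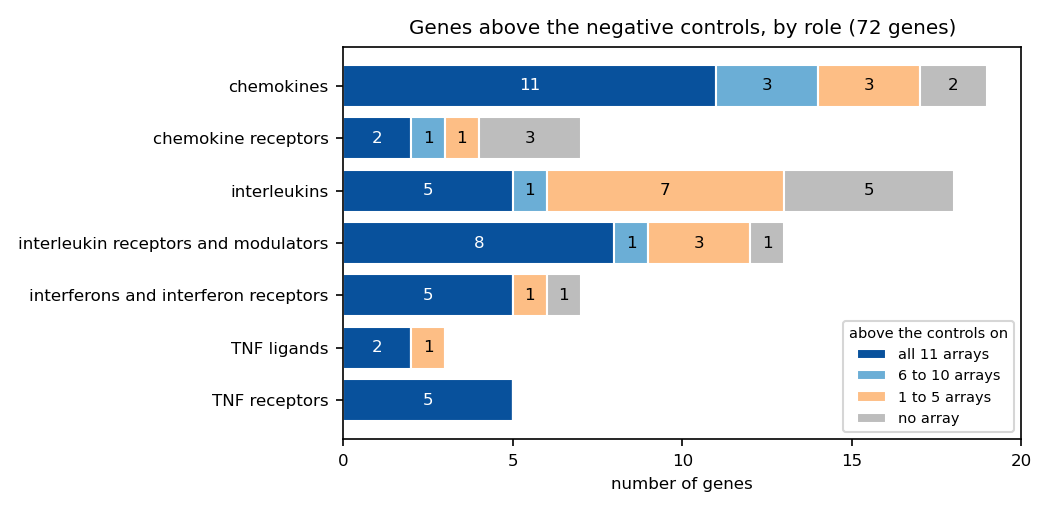
Number of genes in each role (horizontal axis) by the number of arrays on which the gene lay above the highest negative control. All 5 TNF receptors were above it on all 11 arrays, whereas 12 of 18 interleukins were above it on 5 arrays or fewer.

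Some ligands were detected together with a receptor and others without one, in pairs given here as examples and not as a count. CXCL12 and its receptor CXCR4 were both above the controls on all 11 arrays, and TNFRSF1A and TNFRSF1B, the receptors of TNF, were also above them on all 11, with TNF on 9. CCL14 and CCR1, TNFSF13 and TNFRSF17, IL15 and IL2RG, and IFNA1 with IFNAR1 and IFNAR2 were likewise above them on all 11 arrays. CCL5, another ligand of CCR1, was above them on 9, and IL10 on 7 with its receptor chain IL10RB on 11. CCL19 and CCL21, which call lymphocytes and dendritic cells to lymphatics, were above them on all 11 arrays and their receptor CCR7 on none. CCL2, the main attractant of monocytes, was above them on all 11 arrays and its receptor CCR2 on none. IL18, a product of the inflammasome, was above them on all 11 arrays, as was its soluble inhibitor IL18BP, and its receptor IL18R1 was above them on none. CXCL16 was above them on 11 arrays and its receptor CXCR6 on 6, and CCL25 was above them on 6 and its receptor CCR9 on none. IL6 was above the controls on 5 arrays and IL6R on 2, and IL7 on 2 and IL7R on 5. A probe set at the height of the controls gives no level, which is not evidence that the transcript was absent.

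Few of these genes differed between LP and HP muscle beyond the spread between pigs. CCL24 and CXCL14, both chemokines, were lower in LP at an unadjusted limma p of 0.05 or less, and no detected gene of the collection was higher. The study set the same cut-off on the P-like values of puma, a different statistic that uses the error of each probe set, so these calls are not the study's. These 2 of 44 calls are 4.55% of the detected genes, beside 4.4% of all detected genes in either direction, 3% lower in LP and 1.39% higher in LP, so the share of calls lay at the background. In no detected gene of the collection did the HP and LP pigs fail to overlap, compared with 0.481% of all detected genes. Over all 23999 probe sets 0% had a Benjamini-Hochberg adjusted p under 0.05 in limma, where the smallest was 0.644, and 1227 had an unadjusted p of 0.05 or less. The median difference between LP and HP over the 44 genes was -0.07 on the log2 scale, and over all 6024 detected genes it was -0.04. The difference was below 0 in 30 of the 44 (68.2%) and in 58.1% of all detected genes.

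**Figure D2:**
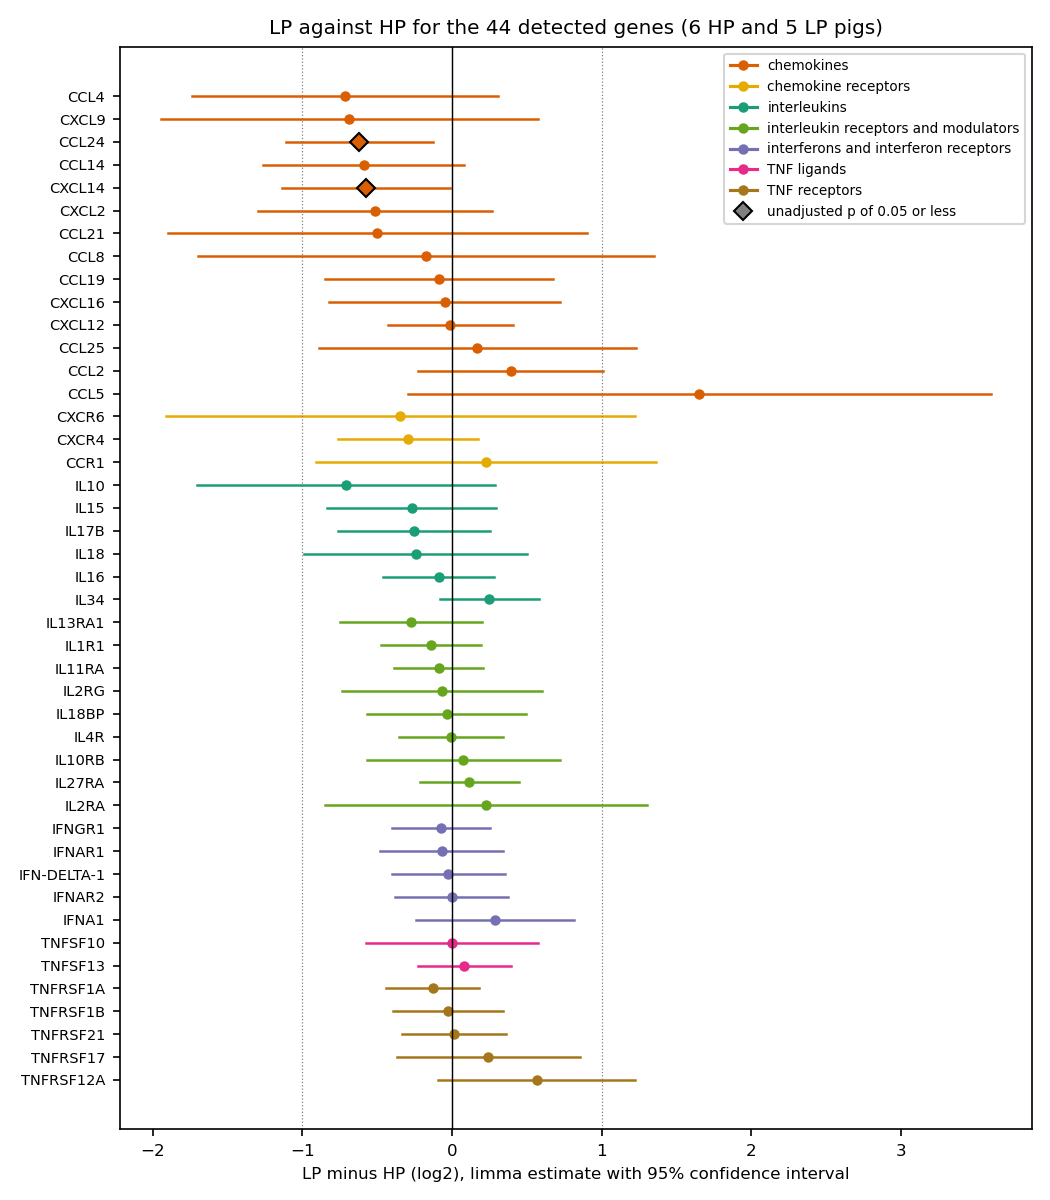
LP minus HP on the log2 scale for each of the 44 detected genes, by role, as the limma estimate (point) with its 95% confidence interval (line). The dotted lines mark a 2-fold difference and the diamonds the 2 genes at an unadjusted p of 0.05 or less, CCL24 (-0.62) and CXCL14 (-0.57).

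The precision of these differences was uneven. The 95% confidence interval of LP minus HP lay within a 2-fold change either way in 28 of the 44 genes, and within a 1.5-fold change in 17. Only 3 of 14 chemokines were that well bounded at 2-fold, compared with 8 of 9 interleukin receptors and modulators, 5 of 5 interferon genes and 4 of 5 TNF receptors. For most receptors a difference larger than 2-fold was therefore outside the interval, and for most chemokines it was not.

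CCL24 (eotaxin-2) attracts eosinophils and is made by macrophages among other cells. Its log2 level in the HP pigs ran from 7.86 over a median of 8.51 to 9.14, and the LP pigs had 8.26, 7.96, 7.65, 7.63 and 8.16. All LP pigs lay below the HP median, and a single HP pig lay inside the LP range. The mean fell from 8.55 ± 0.44 (SD, n = 6) in HP to 7.93 ± 0.29 (SD, n = 5) in LP, a log2 difference of -0.62 ± 0.22 (SE) or 1.53-fold (limma p = 0.0187, adjusted p = 0.936, two-sided exact permutation p = 0.0303). Of the 44 detected genes CCL24 was the only one at 0.05 or less in the exact test, whose smallest possible p with 6 and 5 pigs is 0.00216. Of all 6024 detected genes 357 were at 0.05 or less in that test, so 1 of 44 was not above the background share. CCL24 held p values of 0.05 or less with each array left out in turn, and lost them with HP replicates 1, 2 and 4 left out together (-0.47, limma p = 0.112, exact permutation p = 0.143).

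CXCL14, a chemokine made constitutively by many tissues, ran from 7.45 over a median of 8.47 to 8.81 in HP. The LP pigs had 7.31, 8.31, 7.78, 7.77 and 7.49, so that the diets overlapped and LP replicate 2 stood among the HP pigs. The means were 8.31 ± 0.48 (SD, n = 6) and 7.73 ± 0.38 (SD, n = 5), a log2 difference of -0.57 ± 0.25 (SE) with a limma p = 0.0468 and an exact permutation p = 0.0693. A dimmer probe set of the same gene differed by -0.50 ± 0.23 (SE, limma p = 0.0533, exact permutation p = 0.0736). The call was lost when any of 8 single arrays was left out, namely HP replicates 1, 2, 4 and 5 and LP replicates 1, 3, 4 and 5, with differences from -0.47 to -0.58 and limma p values from 0.0687 to 0.113 (exact permutation p from 0.0952 to 0.143).

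Macrophage markers were measured beside these calls. Of 10 macrophage and monocyte markers 9 were detected, 7 of these 9 had a difference below 0, none had an unadjusted p of 0.05 or less, and their median difference was -0.26. The mean level of the 9 ranged from 6.79 to 8.25 over the HP pigs and from 7.13 to 7.75 over the LP pigs. Among them CD163, C1QA, C1QC and MRC1 differed by -0.40, -0.30, -0.40 and -0.22, while ITGB2 and TYROBP were at 0.20 and 0.08. ITGAM, the marker not detected, was above the controls on 1 array. Markers of skeletal muscle fibres, the labelled tissue, were above the controls on all 11 arrays in 8 of 8 cases and all 8 had differences below 0, with a median of -0.25 and CA3 as the only one called. The part of either in the 2 calls was not tested.

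CCL14, a chemokine present in normal plasma, did not pass. It was even across HP, from 8.50 over a median of 8.71 to 9.09. The LP pigs had 7.66, 8.28, 8.13, 9.38 and 7.39, of which 4 lay below every HP pig and LP replicate 4 above every HP pig. The log2 difference was -0.59 ± 0.31 (SE, limma p = 0.0799, exact permutation p = 0.106). Without LP replicate 4 it was -0.89 (limma p = 0.00119, exact permutation p = 0.00476). Leaving out the pig that runs against the others lowers p by construction, so these p values lend no support to a difference. In 18 of 21 alternative settings CCL14 stayed uncalled.

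CCL5 (RANTES), a chemokine made chiefly by T cells and natural killer cells, had the largest estimate and the widest spread. Its level in HP ran from 1.10 over a median of 3.14 to 6.71, and 2 of the HP pigs were below the controls. The LP pigs had 5.22, 5.24, 4.93, 4.50 and 5.55, a range that lay inside the HP range. The SD was 2.11 in HP and 0.39 in LP, and the log2 difference of 1.65 ± 0.88 (SE) had a 95% confidence interval from -0.29 to 3.60 (limma p = 0.0882, exact permutation p = 0.121). Leaving out HP replicate 4, the pig with the highest level, gave 2.31 (limma p = 0.00522, exact permutation p = 0.0159). That pig ran against the difference, so leaving it out lowers p by construction. CCL5 stayed uncalled in 17 of 20 alternative settings. T and natural killer cell markers were also more spread in HP than in LP. The mean level of the 10 detected markers of 11 ran from 3.59 to 5.03 in HP and from 4.02 to 4.59 in LP. This was not particular to them, since 71.4% of all detected genes had the larger SD in HP. None of the 10 was called and their median difference was 0.09, and CD4 was above the controls on 2 arrays. Their part in the CCL5 values was not tested.

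**Figure D3:**
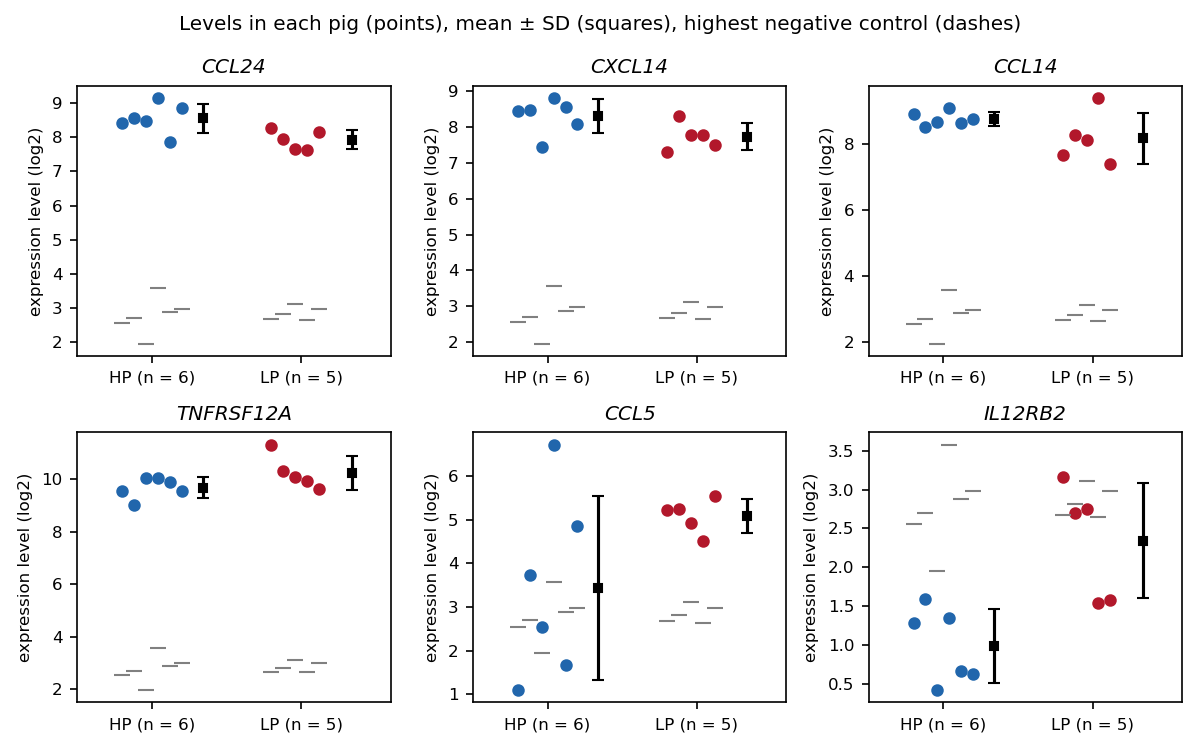
Log2 expression level of 6 genes in each pig (points, blue for HP and red for LP), with the mean ± SD of each diet (black squares and bars) and the highest negative control of each array (grey dashes). CCL24 and CXCL14 lay lower in LP with overlap, CCL5 ran from 1.10 to 6.71 in HP against 4.50 to 5.55 in LP, and IL12RB2 was above the controls in 1 LP pig.

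CCL2 ran from 8.33 over a median of 8.85 to 9.57 in HP, and the LP pigs had 9.94, 9.24, 9.15, 8.43 and 9.38 (log2 difference 0.39 ± 0.28 (SE), exact permutation p = 0.214). LP replicate 4 was again the exception, and without it the difference was 0.59 (limma p = 0.0432, exact permutation p = 0.0524). CCL4, an attractant of monocytes and T cells, ran from 5.78 over 6.90 to 8.23 in HP and was 6.27, 7.28, 5.90, 5.72 and 6.81 in LP (-0.72 ± 0.46 (SE), exact permutation p = 0.201). Without HP replicate 3, the lowest HP pig, it was -0.98 (limma p = 0.0400, exact permutation p = 0.0794). CXCL2, which attracts neutrophils, ran from 7.59 over 8.45 to 9.53 in HP and was 8.56, 7.78, 7.05, 8.23 and 8.49 in LP (-0.51 ± 0.35 (SE), exact permutation p = 0.214). In all 3 genes the diets overlapped. Each pig left out here ran against the difference, which lowers p by construction. CCL2 and CCL4 each stayed uncalled in 20 of 21 alternative settings.

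The axis of CXCL12, which holds stem and progenitor cells in place, showed no common shift. CXCL12 ran from 10.42 over a median of 10.997 to 11.34 in HP, and the LP pigs had 10.61, 10.94, 10.82, 10.95 and 11.34. Its difference was -0.01 ± 0.19 (SE, 95% confidence interval -0.42 to 0.41), and its sign changed with the normalisation and the arrays kept, while its second probe set differed by -0.09. CXCR4, its signalling receptor, ran from 9.93 over 10.58 to 10.95 in HP and was 10.13, 10.05, 10.50, 9.93 and 10.21 in LP (-0.29 ± 0.21 (SE), exact permutation p = 0.195). The LP values lay entirely within the HP range.

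The study also lists CXCR7, the scavenging receptor for CXCL12. The platform annotation gives its probe set no symbol, so that it is outside the 72 genes and the name is the study's. It ran from 9.38 over a median of 10.06 to 10.49 in HP and was 9.56, 9.58, 9.25, 9.23 and 9.77 in LP. The log2 difference was -0.49 ± 0.21 (SE, limma p = 0.0407, exact permutation p = 0.0541). The call was lost when any array but HP replicate 2, HP replicate 5 or LP replicate 5 was left out, with differences from -0.39 to -0.52. The study picked this probe set on these same pigs, so the value is not independent evidence of a direction.

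Among the interleukins, the 6 detected differed by -0.71 to 0.25, and none passed. IL34, which shares the receptor of the macrophage growth factor CSF1, ran from 6.86 over a median of 7.29 to 7.73 in HP and was 7.43, 7.78, 7.40, 7.52 and 7.50 in LP. All LP pigs stood above the HP median with 1 HP pig among them, and the log2 difference was 0.25 ± 0.15 (SE, exact permutation p = 0.110). Without HP replicate 3, the highest HP pig, it was 0.34 (limma p = 0.0254, exact permutation p = 0.00794). That pig ran against the difference, so leaving it out lowers p by construction. IL34 stayed uncalled in 20 of 21 alternative settings. IL10, an inhibitor of inflammation, was near the controls, above them on 4 HP and 3 LP arrays. It ran from 2.50 over 3.21 to 5.10 in HP and was 2.89, 2.30, 3.64, 2.02 and 3.02 in LP (-0.71 ± 0.45 (SE), exact permutation p = 0.190).

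IL15, which sustains natural killer and memory T cells and is abundant in muscle, ran from 5.66 over a median of 5.999 to 6.82 in HP. The LP pigs had 5.51, 6.57, 5.56, 5.76 and 5.79, and LP replicate 2 stood apart from the other LP pigs (-0.27 ± 0.26 (SE), exact permutation p = 0.342). IL18 ran from 8.93 over 9.28 to 10.02 in HP, and its LP pigs, at 10.24, 8.77, 9.43, 8.77 and 8.18, reached both higher and lower than any HP pig (-0.24 ± 0.34 (SE), exact permutation p = 0.513). IL16, an attractant of CD4+ cells, differed by -0.09, and IL17B by -0.25 on its brightest probe set. Its other 2 probe sets, detected on 3 arrays and 1 array, differed by 1.04 and 0.84.

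None of the 9 detected interleukin receptors and modulators passed, and their differences ran from -0.27 to 0.23. IL13RA1 and IL4R form a receptor for IL-4 and IL-13. IL13RA1 ran from 7.31 over 7.83 to 8.48 in HP and was 7.62, 7.38, 7.23, 7.50 and 7.97 in LP (-0.27 ± 0.22 (SE), exact permutation p = 0.251). IL4R differed by -0.01 (95% confidence interval -0.35 to 0.34). IL2RG, the chain shared by the receptors of IL-2, IL-15 and others, differed by -0.07 (-0.73 to 0.60), and IL10RB, shared by the IL-10 and IL-22 receptors, by 0.08 (-0.57 to 0.72). IL1R1, the signalling receptor of IL-1, differed by -0.14 (-0.47 to 0.19) on its brightest probe set. A dimmer probe set of IL1R1, above the controls on all 11 arrays, went the other way, at 0.42 (-0.14 to 0.98, exact permutation p = 0.147). IL18BP differed by -0.03 (-0.57 to 0.50). IL11RA, the receptor of a cytokine of connective tissue, had the smallest SD within diet of the 44 genes, at 0.192.

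IL12RB2, the signalling chain of the IL-12 receptor of T cells and natural killer cells, had the smallest p of the 72 genes, but lay at the height of the controls. It was above them on 0 of 6 HP arrays and on 1 of 5 LP arrays, so it was not detected. The HP pigs ran from 0.42 over a median of 0.98 to 1.59, and the LP pigs had 3.16, 2.70, 2.74, 1.54 and 1.58. The 3 higher LP pigs were above every HP pig and the other two above 5 of the 6, and the values as deposited differed by 1.35 ± 0.35 (SE, limma p = 0.00246, adjusted p = 0.701, exact permutation p = 0.00649). No fold is given, because the bound that the controls allow was below 1-fold (-0.43 on the log2 scale). With low values raised to the 20th percentile of all arrays together, the difference was 0.09 (limma p = 0.259, exact permutation p = 0.335). For that exact test, low values were raised to each array's own 20th percentile instead. Of the 28 undetected genes IL12RB2 was the only one with an unadjusted p of 0.05 or less, compared with 7.42% of all undetected genes. IL12RB2 is in the study's own list, chosen on these pigs. IL12A, a subunit of its ligand, was above the controls on no array, and IL12B on 4.

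The interferon genes differed by -0.07 to 0.29, and none passed. IFNGR1, the ligand-binding chain for interferon gamma, ran from 9.56 over 10.04 to 10.28 in HP and was 9.81, 10.07, 9.77, 9.92 and 9.87 in LP (-0.07, 95% confidence interval -0.40 to 0.26). IFNAR1 and IFNAR2, the chains of the type I interferon receptor, differed by -0.07 (-0.48 to 0.34) and -0.002 (-0.38 to 0.38), and a dimmer probe set of IFNAR2 by 0.58 ± 0.37 (SE, exact permutation p = 0.186). Interferon gamma itself (IFNG) was above the controls on 4 HP arrays and 1 LP array. IFNA1 and IFN-DELTA-1 lay above them on all 11 arrays, and these probe sets cannot separate a gene from near-identical copies in its family.

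In the TNF family, TNFRSF12A had the largest estimate. It is the receptor of TWEAK and is known to rise in injured muscle. It ran from 9.04 over a median of 9.72 to 10.07 in HP, and the LP pigs had 11.32, 10.31, 10.11, 9.92 and 9.63. In LP 3 pigs were above every HP pig, and the log2 difference was 0.57 ± 0.30 (SE, 1.48-fold, limma p = 0.0858, exact permutation p = 0.0974), with 0.51 on a second probe set. The estimate depended on LP replicate 1, without which it was 0.30. It passed without LP replicate 5, at 0.72 (limma p = 0.0384, exact permutation p = 0.0286). LP replicate 5 was the lowest LP pig, so leaving it out lowers p by construction. TNFRSF12A stayed uncalled in 18 of 21 alternative settings.

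TNFSF10, the death ligand TRAIL, ran from 6.01 over a median of 6.18 to 7.03 in HP and was 6.21, 6.23, 6.09, 6.47 and 7.12 in LP. In HP 2 pigs and in LP 1 pig were above 7, with the others from 6.01 to 6.47, and the difference was 0.00 ± 0.26 (SE). TNFRSF1A and TNFRSF1B, the TNF receptors, differed by -0.13 and -0.03, TNFRSF21 (death receptor 6) by 0.01, TNFRSF17, a receptor of plasma cells, by 0.24, and TNFSF13 (APRIL), its ligand, by 0.08. The study also lists LTBR, the lymphotoxin beta receptor, by a probe set that the platform annotation names PNPLA3, a lipase gene of fat and liver. It was above the controls on 4 HP and 5 LP arrays, and was higher in LP by 1.76 ± 0.47 (SE, limma p = 0.00331, exact permutation p = 0.0130). The study's own text uses both names. Its methods name PNPLA3 among the genes chosen for PCR, while its PCR results and primers are given as LTBR. That PCR was also higher in LP. The array value is not counted here.

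By SD alone, pigs on the same diet were the most unlike each other in the chemokines and their receptors. The median SD within diet was 0.439 over the 44 genes and 0.258 over all 6024 detected genes on the log2 scale, and it was 0.399 and 0.249 over the 38 and 5618 genes that were above the controls on all 11 arrays. By role the median was 0.62 in the 14 chemokines, compared with 0.362 in the interleukin receptors, 0.273 in the interferon genes and 0.263 in the TNF receptors. The SD exceeded 0.608, the 90th percentile of all detected genes, in 9 of 14 chemokines and 2 of 3 chemokine receptors, and in 0 of the 12 interferon and TNF genes. Dim genes scatter more on this array, so each of the widest genes was also placed among the 500 detected genes nearest to it in mean level. IL10, CCL25, IL2RA and CXCL16, whose SD also exceeded 0.608, were then above 56.8%, 64.2%, 65% and 80% of genes of like level. CCL5 was above 98%, CCL8 and CCL19 each above 92.2%, and CXCR6 above 88.8%. IL18 and TNFRSF12A, whose SD was under 0.608, were above 98.6% and 96.2%. Wide spread for the level was therefore not confined to the chemokines and their receptors. The genes in the next paragraph were chosen for their spread after their values were seen.

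CCL21 ran from 5.71 over a median of 8.05 to 9.96 in HP and was 8.24, 7.51, 7.71, 7.13 and 6.81 in LP, a 19.1-fold range over the pigs. Its SD of 1.14 was above that of 99% of genes of like level. CXCL9, which interferon gamma induces, ran from 4.85 over 6.73 to 8.60 in HP and was 6.54, 7.04, 5.96, 5.89 and 5.13 in LP, a 13.4-fold range with an SD above 98.4% of such genes. HP replicate 3 had the highest level of both CCL21 and CXCL9. CXCL9 differed by -0.68 ± 0.57 (SE, exact permutation p = 0.305). Without HP replicate 2, the lowest pig, it differed by -1.07 (limma p = 0.0398, exact permutation p = 0.0556). That pig ran against the difference, so leaving it out lowers p by construction. CXCL9 stayed uncalled in 19 of 20 alternative settings. No range is given for CCL5, which was not above the controls in 2 HP pigs. CCL8, an attractant of monocytes, was 5.24, 3.25, 5.45, 1.36 and 4.97 in LP and 3.36 to 4.88 in HP, and LP replicate 4, its lowest pig, was not above the controls. CCR1, a receptor of CCL5 and CCL14, was at 6.51 in HP replicate 6 and between 3.43 and 4.56 in the other HP pigs, and was 5.68, 4.91, 5.28, 3.70 and 4.44 in LP. The SD of CCR1 was above that of 89.8% of genes of like level.

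**Figure D4:**
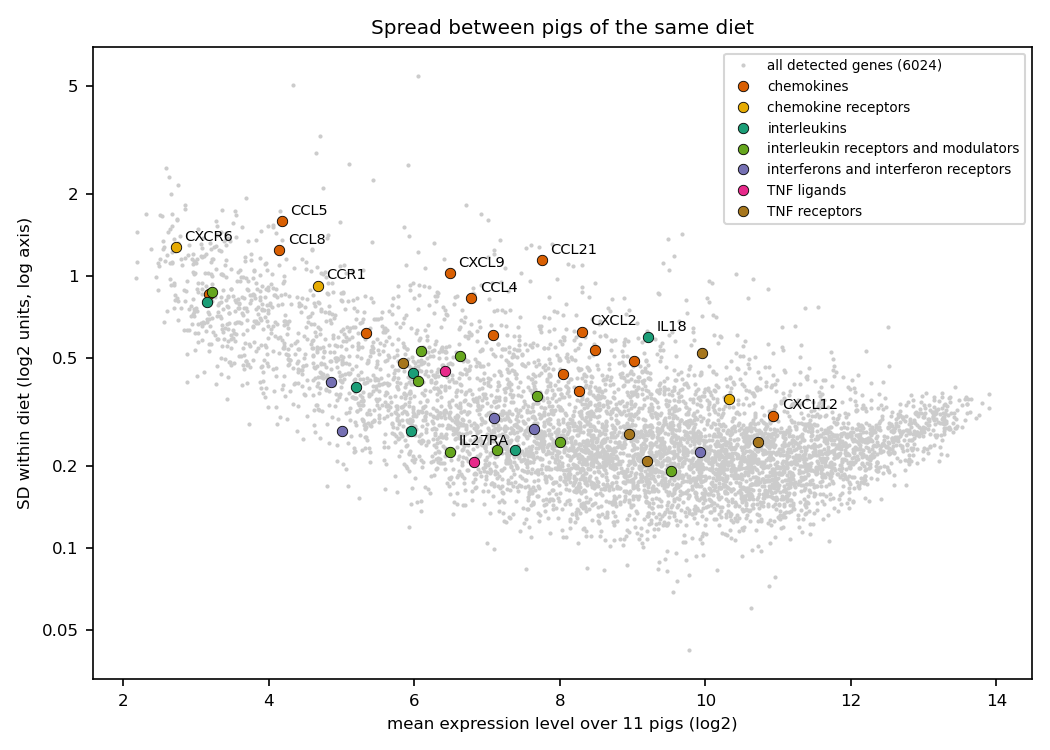
SD between pigs of the same diet (vertical, log axis) against the mean log2 level over the 11 pigs (horizontal) for the 44 detected genes, coloured by role, over all 6024 detected genes (grey). Chemokines such as CCL21, CXCL9 and CCL4 lay at the upper edge of the grey points of their level, whereas most receptors lay among them.

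The diets also differed in spread, in these genes as in others. The SD was larger in HP than in LP in 32 of the 44 genes (72.7%), and in 71.4% of all detected genes. CCL5, CCL21 and CCL19 had an SD in HP of 2.11, 1.45 and 0.75 and in LP of 0.39, 0.55 and 0.35. CCL14, IL18 and CCL8 went the other way, with 0.21, 0.38 and 0.60 in HP and 0.77, 0.79 and 1.74 in LP. HP replicate 4 held the highest level of 14 of the 44 genes (31.8%), compared with 35% of all detected genes, and HP replicate 5 the lowest of 10 (22.7%), compared with 11% of all detected genes.

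**Figure D5:**
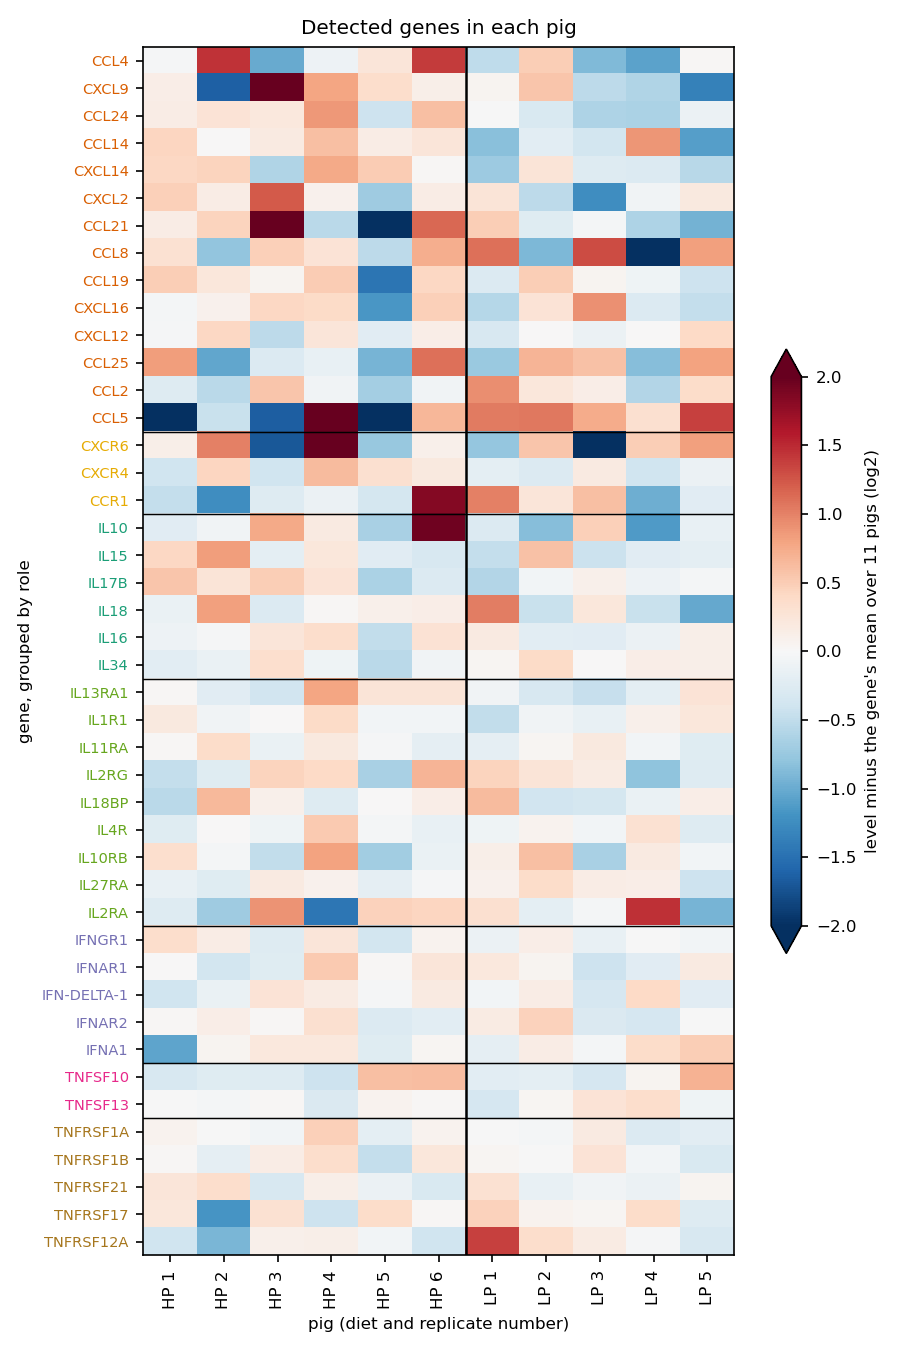
Level of each of the 44 detected genes in each pig as the difference from the gene's mean over the 11 pigs (log2, colour), with genes grouped by role and the black vertical line between HP and LP pigs. The chemokine rows at the top hold the strongest colours, including CCL21 and CCL19 in HP replicate 5 and CCL5 in HP replicates 1 and 4, and the interferon and TNF rows at the bottom are mostly pale.

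Differences of genes that lie near each other in the pig genome (RefSeq Sscrofa11.1, used for gene order only) are set side by side here. CCL21 and CCL19 have no protein-coding gene between them and differed by -0.50 and -0.09. CCL14 and CCL5 have 1 gene between them and differed by -0.59 and 1.65, and CCL8 and CCL2 have 1 between them and differed by -0.17 and 0.39. The receptor genes IFNAR2, IL10RB and IFNAR1 follow each other directly and differed by -0.002, 0.08 and -0.07. None of these differences passed, and differences between neighbours were not tested.

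Downstream of the receptors, no gene passed in 3 of the 4 pathway lists. Among JAK, STAT and SOCS genes 14 of 16 measured were detected, 0 were called and the median difference was -0.08, with STAT3, the factor of the IL-6 family, at -0.09 (SE 0.14) and SOCS1 at -0.21 (SE 0.24). All 14 measured genes of NF-kB and TNF signalling were detected, 0 were called and the median was 0.01, with NFKB1 at 0.53 (exact permutation p = 0.0952) and NFKBIA, its inhibitor, at -0.23 (exact permutation p = 0.294). MAP3K7 had the smallest p of that list, at 0.23 (limma p = 0.0726, exact permutation p = 0.0368), and was not called, since calls rest on limma. Of 25 interferon-stimulated genes 23 were detected, 0 were called and the median was 0.05. ISG15 was at 1.02 ± 0.48 (SE, limma p = 0.0561, exact permutation p = 0.0649), with HP pigs from 3.77 to 6.80 and LP pigs from 6.24 to 7.05. MX1, MX2 and OAS1 were at 0.16, 0.11 and 0.26. The difference was below 0 in 11 of the 23, among them GBP1 at -0.33 and IFIT1 at -0.29.

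Of 23 measured cytokines and receptors whose symbols the choice did not cover, 14 were detected, 0 were called higher in LP and 1 lower. Of all detected genes 1.39% were called higher and 3% lower, and 1 call among 14 genes cannot be told apart from that share. The gene called was LTA, lymphotoxin alpha, a TNF relative made by lymphocytes. Its level ran from 3.94 to 4.63 in HP and from 2.97 to 4.12 in LP, above the controls on 10 arrays, and differed by -0.59 ± 0.20 (SE, limma p = 0.0136, adjusted p = 0.916, exact permutation p = 0.00866). LTB, its partner, was at 0.22, TNF at 0.54 ± 0.54 (SE, detected on 9 arrays) and LEP, leptin, at 0.74 ± 0.34 (SE, limma p = 0.0533, exact permutation p = 0.0887). Endothelial markers were detected in 8 of 8 cases, adipocyte markers in 3 of 3, red blood cell markers in 2 of 2 and mast cell and granulocyte markers in 3 of 4, with none called, and the 1 measured B cell marker, CD79B, was above the controls on no array.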

How the data were processed

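RNA from the *M. semimembranosus* of each pig was hybridised by the authors to its own Affymetrix Porcine Genome array after amplification. The levels that the authors deposited are on a log2 scale, 1 per probe set, and were made in R and Bioconductor with puma. All 11 arrays share a median of 6.72. How background was corrected and arrays were normalised is not stated in the labels or methods. The number of arrays limits the precision. The labels gave the diet of each sample.

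After 124 control probe sets were left out, 23999 were tested. The platform annotation gives 1 symbol to 10069 of all probe sets, several to 198 and none to 13732. Another 3 probe sets that carry a symbol of the collection beside a second symbol were left out. All 72 genes were found by gene ID in the RefSeq genes of Sscrofa11.1 under the same symbol. The files name no genome build, so no coordinates are given, and no sequences are printed.

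A linear model with diet as its term was fitted over all 11 arrays with limma 3.58.1 (R 4.3.3, empirical Bayes, two-sided). Calls were made at an unadjusted limma p of 0.05 or less, with Benjamini-Hochberg adjusted p values beside it. The study set the same cut-off on puma's P-like values, a different statistic. For single genes the diets were also permuted exactly, over the 462 ways to split 11 pigs into 6 and 5. The fit was tested on simulated data. Python 3.11.15 with pandas 2.3.3 and scipy 1.17.1 was used for the rest. The p values set the difference between the diets against the spread between these pigs, and the labels do not say how the pigs were sampled beyond the diet.

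The genes named with their values are the detected genes called, those of the study's list (IL12RB2, CXCR7 and LTBR), the 10 detected genes with the next smallest p, the detected members of ligand and receptor sets, and undetected genes with a p of 0.05 or less. Other members are given for their role, and those described for their spread were chosen after their values were seen. The members and lists were chosen with earlier results of these data known. Alternatives were quantile normalization, centring, other filters and detection rules, other priors, array weights, a replicate block, leaving out each array, the exact test and the mean of all probe sets. Leaving out HP replicates 1, 2 and 4 together, whose 95th percentiles of 11.7 to 11.8 were the highest of the arrays, was chosen after seeing the data.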

Additional observations from a re-analysis of the deposited data

Results flagged for a closer look

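In the 64 groups of pigs searched (32 genes or probe sets, 2 diets), 4 held a single array far from the others by Dixon's test. Chance flags about 1 in 20 groups that were not chosen by their values. CCR1 and CCL19 were searched because of their spread, so that rate does not hold for them. IL15 was at 6.57 in LP replicate 2, with the other LP pigs between 5.51 and 5.79, and without that pig the difference between LP and HP was -0.45 (exact permutation p = 0.0762). IL4R was at 8.52 in HP replicate 4, with the other HP pigs between 7.77 and 8.02, and without it the difference was 0.10 (exact permutation p = 0.413). CCR1 was at 6.51 in HP replicate 6, above 3.43 to 4.56 in the others, and without it the difference was 0.62 (exact permutation p = 0.167). CCL19 was at 5.63 in HP replicate 5, below 7.15 to 7.60 in the others, and without it the difference was -0.38 (exact permutation p = 0.0556).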

How the results depend on the processing

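Of the 72 genes, 44 were detected at 6 arrays or more, 38 when all 11 arrays were required and 60 when 1 was enough. The count of detected genes lower in LP (2) was 3 with dim probe sets left out and with a trended robust prior, 1 with low values raised, array weights and the exact permutation test, and 0 with HP replicates 1, 2 and 4 left out together. The count higher in LP (0) was 1 with these 3 left out (CCL5), with dim probe sets left out (TNFRSF12A), with the mean of all probe sets (IL17B) and with detection on at least 1 array (IL12RB2), and 2 with array weights (CCL5 and TNFRSF12A). Leaving out each array in turn gave 0 to 1 higher and 1 to 3 lower, with CCL24 among the lower each time, and a median difference from -0.14 to -0.01. The median was below 0 in every setting run. Over all detected genes it was also below 0 wherever it was computed, except with HP replicates 1, 2 and 4 left out together (0.06, beside -0.02 in the 44 genes). With the replicate block it was -0.05, beside -0.04 in the 44 genes. With the replicate number as a block, which leaves HP replicate 6 without a partner, 0 were higher and 0 lower, CCL24 was at -0.55 and no longer called, CXCL12 at 0.0175 and IL2RG at 0.0650. Over all probe sets same-numbered pigs did not deviate together (correlations from -0.07 to 0.08). Whether the numbers follow the weight blocks is not stated, and these correlations cannot settle it, since a block need not shift most genes. The cause of these shifts was not tested.

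Genes that had not passed and lay near 0 changed sign in some settings. With HP replicates 1, 2 and 4 left out together CXCL12 was at 0.20, IL15 at 0.10, IFNGR1 at 0.14, IFNAR2 at 0.15, IL4R at 0.0914, TNFSF10 at -0.32, CCR1 at -0.28 and CCL19 at 0.28. With array weights IL2RG was at 0.0423, IFNAR2 at 0.0678, IL4R at 0.0787, TNFSF10 at -0.14 and CCL19 at 0.0158. With the mean of all probe sets IL1R1 was at 0.14, IFNAR2 at 0.29 and IL4R at 0.26, with quantile normalization CXCL12 was at 0.0324 and TNFSF10 at -0.00445, and with low values raised CCL8 was at 0.10. With each array left out the differences ran from -0.11 to 0.0713 in CXCL12, -0.20 to 0.13 in IL2RG, -0.20 to 0.0932 in IL18BP, -0.15 to 0.0297 in IFNAR1, -0.12 to 0.0810 in IFNAR2, -0.0642 to 0.25 in IL10RB, -0.0840 to 0.0977 in IL4R, -0.17 to 0.12 in TNFSF10, -0.52 to 0.50 in CCL8, -0.000285 to 0.62 in CCR1 and -0.38 to 0.00874 in CCL19.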
